A study of Arabidopsis thaliana with 12 samples.

Results

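Pre-mRNA splicing was compared directly between 2 Arabidopsis thaliana mutants, prmt5-5 and picln-1, bin by bin. Genes were divided at their annotated splice sites into bins, each an intron, an exon or a part of an exon whose use can vary. The members are all bins that the authors listed for a change of usage in either mutant against wild type (WT), taken once each: 3687 bins in 2751 genes, from 3947 rows of both lists. The list for picln-1 holds 541 bins, or 0.479% of the 112984 bins tested there, and the list for prmt5-5 holds 3406, or 2.88% of 118209. The measure is the authors' own fraction, 1 value per bin and genotype with the libraries pooled, which gives the part of the junction reads in which the intron was retained or the exon part included. The difference between the mutants is the percentage in prmt5-5 minus that in picln-1, in percentage points, with the WT percentage as reference. Where 3 percentages follow each other without a genotype, they are those of WT, picln-1 and prmt5-5 in that order.

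The series holds 12 libraries of polyadenylated RNA, of which 8 belong to the compared mutants, 4 of prmt5-5 and 4 of picln-1, and 4 to WT. All 3 genotypes were whole seedlings kept for 10 days at 22 °C, and the treatment recorded for every library is 9 days of 12 h light and 12 h dark. The design line of the series speaks of cold, which no library label records. The labels give neither the lesion of each allele nor the number of seedlings behind a library, and they leave unsaid whether libraries were grown separately. No value per library and no read number was available for these fractions, so depth is unknown, no test between the mutants could be made, and no difference below can be set against the spread between libraries.

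Spliceosomes are built from small nuclear ribonucleoproteins (snRNPs), each carrying a ring of Sm proteins around its RNA. PRMT5 is the enzyme that places symmetric dimethyl groups on arginines of Sm proteins and other RNA-binding proteins, and in plants its loss is known for retained introns, a disturbed clock and late flowering. pICln is known from animals as a chaperone that binds Sm proteins and presents them to the methylation complex before the ring is closed. The 5′ splice site, the start of an intron, is read first by the U1 snRNP, which pairs with the last exon bases and the first intron bases.

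The mutated genes were read first. The authors' deposited table gives pICln (AT5G62290) in picln-1 a log2 change of -3.48, or 11.2-fold lower than WT, with an adjusted p of 1.65e-94. It does not list pICln in prmt5-5. Expression of PRMT5 (AT4G31120) was listed for neither mutant. Its intron 20 of 22 had the largest difference of the whole comparison, listed at 0% in WT, against 0.870% in picln-1 and 81% in prmt5-5. This intron lies in the mutated gene itself, and the part of the lesion in its retention was not tested.

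The introns below carry the main contrasts and are shown with the last 3 exon bases before them, 5′ to 3′, from the RefSeq annotation of build TAIR10.1. Capitals mark the 9 bases of the 5′ splice site that were scored, 3 of the exon and 6 of the intron, and all lie within the coding sequence of the matched transcript. The score, in bits, states how closely those bases match all annotated introns that begin with GT, for which the median was 7.07. CCD1 encodes a carotenoid cleavage enzyme, ESP4 a symplekin-like factor of 3′ end formation and TOC1 a core clock repressor. The first 2 sequences were retained far more in prmt5-5 and the last 3 more in picln-1.
CCD1 intron 1 of 13 (chr3:23453156-23453236, plus strand, 0.04 bits): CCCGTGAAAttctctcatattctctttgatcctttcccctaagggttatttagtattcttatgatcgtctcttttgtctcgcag
PRMT5 intron 20 of 22 (chr4:15132630-15132724, minus strand, 5.81 bits): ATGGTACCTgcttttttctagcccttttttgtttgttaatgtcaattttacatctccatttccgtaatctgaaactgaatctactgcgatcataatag
ESP4 intron 3 of 26 (chr5:170000-170081, minus strand, 5.24 bits): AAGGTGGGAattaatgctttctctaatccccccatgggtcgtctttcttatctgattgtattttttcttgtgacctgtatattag
TOC1 intron 4 of 5 (chr5:24676740-24676823, plus strand, 7.41 bits): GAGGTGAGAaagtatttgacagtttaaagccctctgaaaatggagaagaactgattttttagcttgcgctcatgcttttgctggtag
AT1G70180 intron 4 of 6 (chr1:26427422-26427495, plus strand, 5.72 bits): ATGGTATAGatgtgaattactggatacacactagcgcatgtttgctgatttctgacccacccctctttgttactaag

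Most bins were retained or included more in prmt5-5 than in picln-1. Of the 3687 bins, 3246 (88.0%) had the higher fraction in prmt5-5, 438 in picln-1, and 3 were equal. The median bin stood at 2.70% in WT, against 5.26% in picln-1 and 14.7% in prmt5-5, and the median difference was 8.44 percentage points, with quartiles of 4.74 and 15.1. A difference of over 10 points was found in 1527 bins higher in prmt5-5 (41.4% of the union) and in 119 higher in picln-1 (3.23%), while 2041 lay within that limit. The imbalance was present at each size counted: over 20 points 593 bins against 30, over 30 points 287 against 7, and over 50 points 58 against 1. In 150 bins the fraction of picln-1 was listed at 0, and 76 of these were over 10 points higher in prmt5-5.

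**Figure D1:**
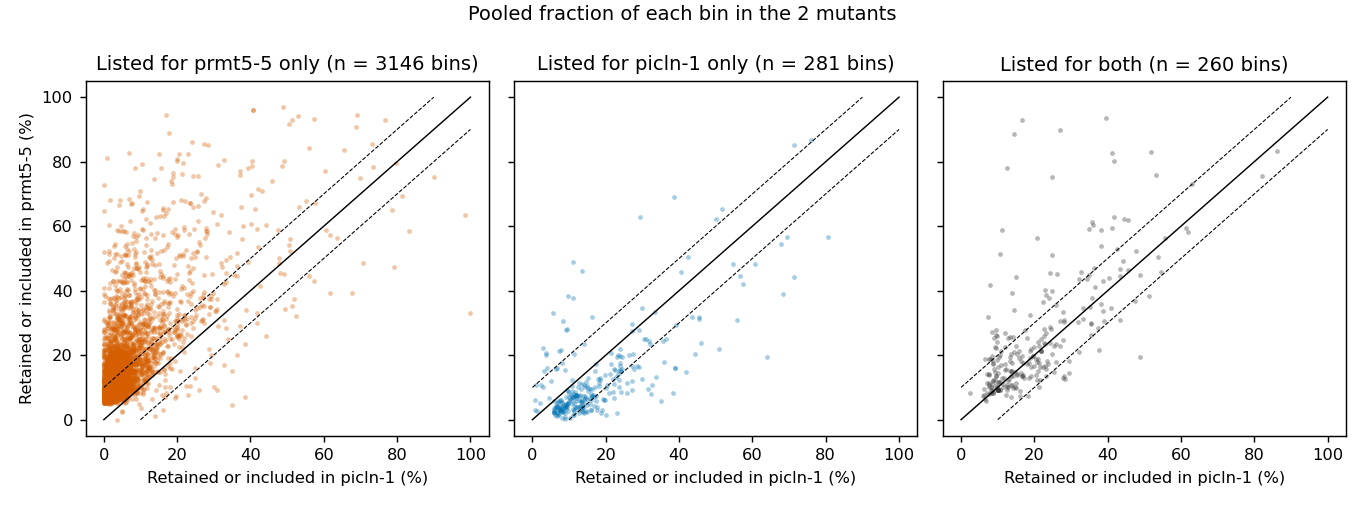
Percentage retained or included in picln-1 (x axis) and in prmt5-5 (y axis) for each bin, pooled over the libraries of a genotype, split by the list that holds the bin; the solid line marks equal values and the dashed lines a difference of 10 percentage points. Of the bins listed for prmt5-5 only, 1444 lie above the upper dashed line, and the 260 bins listed for both mutants lie closer to the line of equal values, with a median difference of 1.51 points.

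Which list a bin came from sets much of this imbalance, because each list holds bins that moved in that mutant. Among the 3146 bins listed for prmt5-5 only, 3048 were higher in prmt5-5, with a median difference of 9.27 points. Among the 281 listed for picln-1 only, 237 were higher in picln-1, with a median difference of -5.69 points. The 260 bins listed for both passed the same limits in both mutants and make up 48.1% of the list for picln-1 and 7.63% of that for prmt5-5. In these, 155 were higher in prmt5-5, 104 in picln-1 and 1 was equal, at medians of 5.03% in WT, against 17.4% in picln-1 and 19.6% in prmt5-5, with quartiles of the difference at -2.46 and 9.10 points. Past 10 points the shared bins split 61 against 14. Both lists were made against the same WT libraries. Of the bins listed for prmt5-5 only, 489 (15.5%) were also over 5 points above WT in picln-1, and of those listed for picln-1 only, 64 (22.8%) were over 5 points above WT in prmt5-5.

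The largest excess in prmt5-5 over picln-1 was found in introns that mostly lay near WT in picln-1 and were kept in most junction reads in prmt5-5. The 14 genes described here, taken from the 15 with the largest differences, were all represented by introns, at 68.0 to 94.6% in prmt5-5 and 0 to 27.0% in picln-1. After PRMT5 came TGA9, a bZIP transcription factor of anther development, whose intron 5 of 13 (chr1:2625813-2626189) stood at 17.8% in WT, against 16.9% in picln-1 and 94.6% in prmt5-5. CCD1 intron 1, the first sequence above, stood at 6.08%, 16.6% and 92.8%, so picln-1 lay above WT there as well, and the bin was listed for both mutants. The U1 snRNP-associated protein gene PRP40B had intron 10 of 28 (chr3:6833178-6833281) at 4.62% in WT and 72.6% in prmt5-5, and listed at 0% in picln-1.
For HINT4, a histidine triad protein, intron 1 of 6 stood at 4.50% in WT, against 4.29% in picln-1 and 68.0% in prmt5-5. For TAFII15, a TBP-associated factor, intron 2 of 6 stood at 2.34%, 1.81% and 68.1%. In both genes picln-1 was slightly below WT and prmt5-5 alone was far above. The potassium antiporter gene KEA6 (15.8%, 15% and 82.3%), the kinesin-like KICP-02 (21.5%, 17.7% and 89.0%) and the glyoxalase gene GLX2-1 (5.56%, 8.47% and 77.9%) also had picln-1 within 4 points of WT. The remaining 5 genes among the 14 are AT4G03820, AT2G35390, AT1G76020, AT5G25270 and AT2G25760. All 14 introns were scored, and 13 of them lay below the lower quartile of annotated 5′ splice sites, which is 5.54 bits; the exception is the intron of PRMT5 itself.

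**Figure D2:**
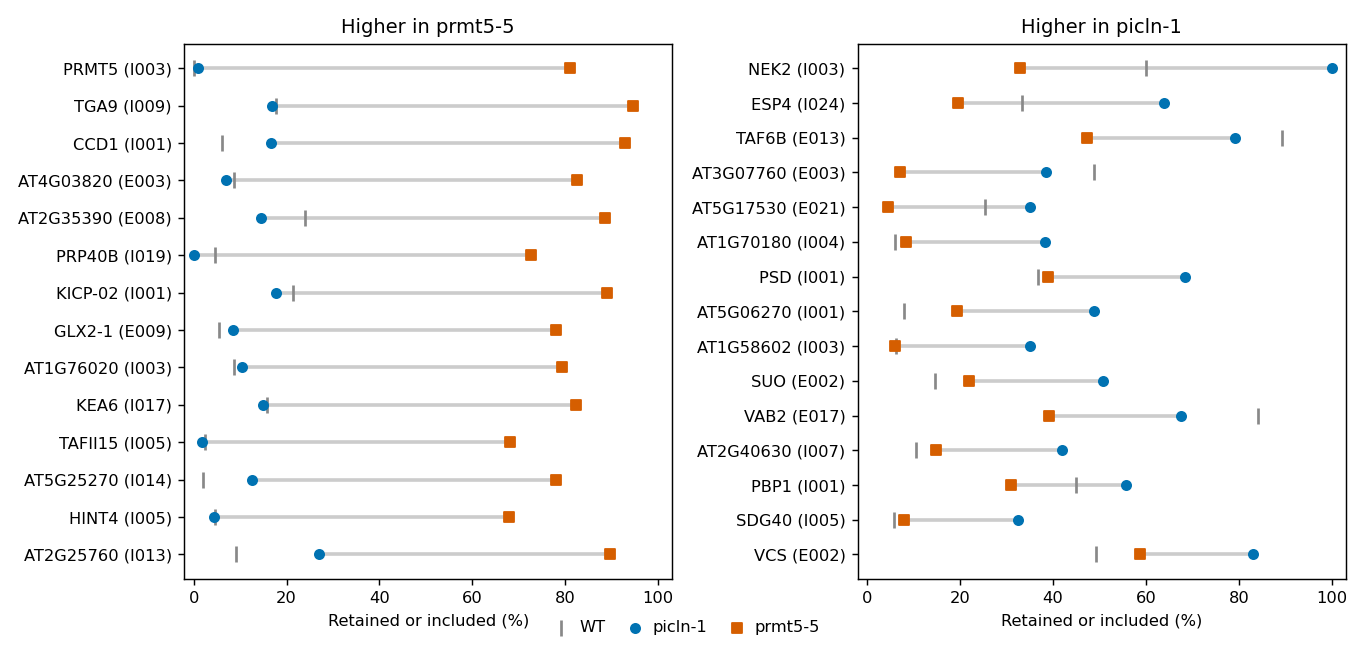
Percentage retained or included in WT (grey tick), picln-1 (blue circle) and prmt5-5 (orange square) for 14 genes with the largest differences toward prmt5-5 (left) and 15 toward picln-1 (right), each gene by its bin of largest absolute difference, pooled over the libraries of a genotype with no error available. On the left prmt5-5 lies at 68.0 to 94.6% and picln-1 at 0 to 27.0%, near WT in most; on the right WT lies near prmt5-5 for genes such as AT1G70180 and nearer picln-1 for the alternative 5′ splice sites of AT3G07760 and TAF6B.

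In the opposite direction differences were mostly smaller and of several kinds. Each gene entered with its bin of largest absolute difference, and the 15 genes below are those with the largest difference toward picln-1. AT5G05310 (-34.9 points) and AT5G40500 (-26.9 points) also had a bin of this size, but each had a larger difference toward prmt5-5 in another bin. The largest was in NEK2, a NIMA-related kinase, where the second 5′ UTR intron stood at 60.0% in WT, against 100% in picln-1 and 32.9% in prmt5-5. That bin was listed for prmt5-5 only. The other readout of the NEK2 bin went the opposite way, since its usage rose in prmt5-5 by 2.22 on the log2 scale in the authors' deposited table. ESP4 intron 3, shown above, stood at 33.3% in WT, against 63.9% in picln-1 and 19.5% in prmt5-5, so the mutants lay on opposite sides of WT. This intron was listed for picln-1 only. AT1G70180 intron 4, also shown, stood at 6%, 38.3% and 8.26%, which puts prmt5-5 close to WT.
Retention of the last intron of PSD, in the 3′ UTR of the gene for the tRNA exportin PAUSED, was 36.7% in WT, against 68.4% in picln-1 and 38.9% in prmt5-5. SUO, a gene of microRNA-guided translational repression, had its 3′ UTR intron at 14.5%, 50.8% and 22.0%. SDG40, which encodes a SET-domain protein, had its last intron at 5.71%, 32.4% and 7.89%. In these 3 genes, as in AT2G40630 (10.4%, 41.8% and 14.8%), picln-1 stood apart and prmt5-5 remained within 8 points of WT. AT5G06270 was the only one of the 15 listed for both mutants, with its 5′ UTR intron at 7.94% in WT, against 48.8% in picln-1 and 19.3% in prmt5-5. Alternative 5′ splice sites made up 4 of the 15, in TAF6B, AT3G07760, AT5G17530 and VAB2, and they are described further on. These 4 bins, like those of NEK2 and VCS among the 15, were listed for prmt5-5 only. Their changes in picln-1 did not pass the authors' limits. The median length of the 15 bins was 77.0 bases, and the 11 scored introns had a median score of 6.35 bits.

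Among the 10 bins with the strongest evidence in both lists, 7 differed by less than 10 points between the mutants. This is near the share over all shared bins, of which 185 of 260 lay within that limit. By the larger of both adjusted p-values, the leading 3 were introns of ORG1, a gene first described as responsive to the transcription factor OBP3. Intron 7 stood at 1.41% in WT, against 11.6% in picln-1 and 13.0% in prmt5-5, intron 6 at 2.19%, 12.2% and 15.7%, and the 5′ UTR intron 1 at 8.23%, 20.8% and 17.8%. CGLD27 intron 2, in a gene conserved in the green lineage and diatoms, stood at 2.07%, 9.19% and 12.2%. Differences over 10 points among the leading 10 were found for AT3G24740 (4.35%, 24.8% and 39.9%), the xyloglucan endotransglucosylase gene XTH31 (4.48%, 12.1% and 26.9%) and, toward picln-1, the aspartate kinase gene AK3 (4.30%, 29.3% and 18.3%). AT5G53850 intron 2 was better spliced than WT in both, at 19.7% in WT, against 7.69% in picln-1 and 10.2% in prmt5-5.

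In 3 of the 260 shared bins the usage in the authors' deposited table moved in opposite directions, each time down in picln-1 and up in prmt5-5. SCL33, an SR-like splicing factor, had its intron at 51.0% in WT, against 35.8% in picln-1 and 61.2% in prmt5-5 (log2 usage -0.72 and 0.47 in the authors' deposited table). AT2G35390 intron 1 stood at 24%, 14.6% and 88.6%, and intron 5 of GLT1, the NADH-dependent glutamate synthase, at 14.8%, 9.09% and 25.3%. Over the whole union, prmt5-5 lay over 5 points above WT and picln-1 over 5 points below it in 55 bins, and the reverse held in 8. Those 8 are in PRP39, AT1G73660, MAF1, NEK2, PBP1, RS2Z32, ESP4 and AT5G17530. Of all these bins, only those in SCL33, AT2G35390 and GLT1 were listed for both mutants. The others were listed for a single mutant, so their shift in the other did not pass the authors' limits.
A second readout of the shared bins, the log2 change of usage in the authors' deposited table, can be read beside the fractions, although it comes from the same reads. Where prmt5-5 had the higher fraction, usage also changed more toward inclusion in prmt5-5 in 131 of 155 bins. Where picln-1 had the higher fraction, usage was higher in picln-1 in 80 of 104. Fraction and usage moved against each other in 1 bin of the list for picln-1 and 6 of that for prmt5-5: RAP2.7 in both lists, and AT1G25175, NEK2, AT3G56210, PGLCT and ZTL in prmt5-5.

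The introns that separated the mutants differed in their 5′ splice sites. Of 3632 intron bins 3625 (99.8%) matched an annotated intron exactly, and 1512 of the matched introns were over 10 points higher in prmt5-5 and 99 over 10 points higher in picln-1. The introns higher in prmt5-5 had a median score of 4.74 bits, against 7.04 bits for those higher in picln-1 and 7.07 bits for annotated introns. Listed introns within 10 points also lay below annotated introns, with a median of 5.71 bits and G at the last exon base in 65.9%. G at the last exon base was present in 51.5% of the introns higher in prmt5-5 and in 83.8% of those higher in picln-1, against 76.2% of the 136279 annotated introns. G at both the last exon base and the intron's base 5 was present in 11.9% and 35.4%, against 31.5%. The sequences above show the range: the CCD1 intron follows an exon that ends in C, the PRMT5 intron follows a G and scored above those of ESP4 and AT1G70180, and the 3 introns higher in picln-1 all follow a G.
These groups were formed from the lists, which favour whichever mutant moved, so the bins listed for both were read separately. There, the 60 introns over 10 points higher in prmt5-5 had a median score of 4.66 bits and G at the last exon base in 29 (48.3%). The 14 higher in picln-1 had a median of 7.04 bits and that G in 13. The share of introns with the higher fraction in picln-1 was 2.85% at up to 2 bits, 2.07% between 2 and 4 bits and 36.9% above 8 bits over the union. Among shared bins it was 33.3% at up to 2 bits, where there were only 9 introns, 12.5% between 2 and 4 bits, and 62.8% above 8 bits.

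**Figure D3:**
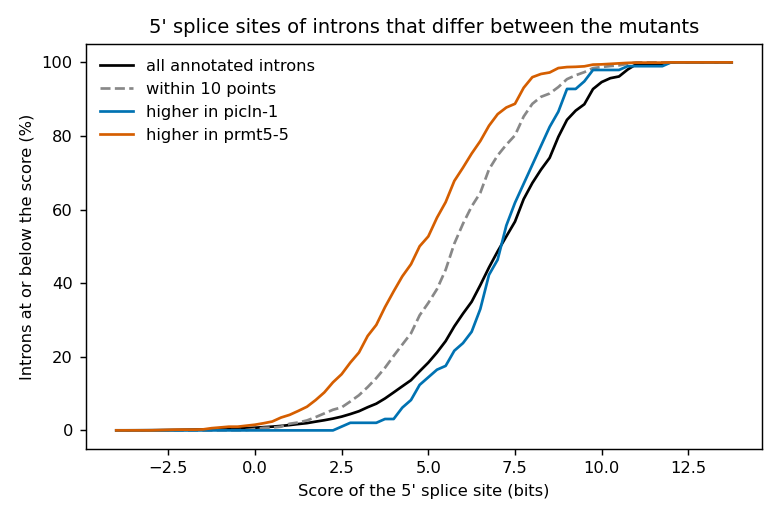
Cumulative share of introns (y axis, percent) at or below each 5′ splice-site score (x axis, bits) for all annotated introns, introns within 10 points, and introns over 10 points higher in picln-1 or in prmt5-5. The curve for prmt5-5 lies to the left, with a median of 4.74 bits, and that for picln-1 runs near the annotated introns, with medians of 7.04 and 7.07 bits.

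Length separated the groups as well. The introns higher in picln-1 had a median length of 83.0 bases and those higher in prmt5-5 one of 110.0 bases, against 102 bases for annotated introns. Introns of 85 bases or fewer made up 56 of the 99 higher in picln-1 (56.6%) and 222 of the 1512 higher in prmt5-5 (14.7%), against 23.8% of annotated introns. Over the union, 34.0% of introns up to 75 bases had the higher fraction in picln-1, against 4.55% of those over 120 and up to 200 bases and 8.98% above 200 bases. Among the shared bins these shares were 60.5%, 21.7% and 31.9%, and the median difference there was -0.93 points up to 75 bases and 4.26 points in the class up to 200 bases. Split by length and exon end at once, of the shared introns 60.3% of those of 85 bases or fewer after a G had the higher fraction in picln-1, 45.2% of such introns without it, 35.3% of longer ones after a G and 27.9% of longer ones without it.

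**Figure D4:**
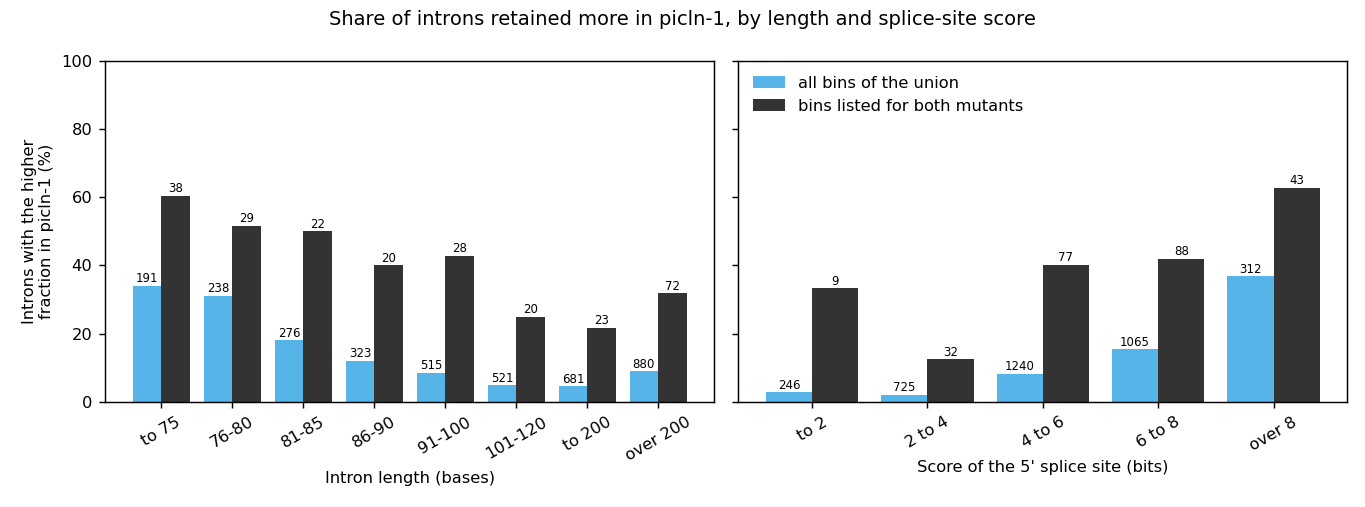
Share of introns with the higher fraction in picln-1 (y axis, percent) by intron length in bases (left) and by 5′ splice-site score in bits (right), for the union (light blue) and for bins listed for both mutants (black); the number over each bar is its number of introns. The share falls from 34.0% to 4.55% with length over the union and rises to 36.9% above 8 bits, or 62.8% among shared bins.

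Base composition and position differed over the union. The median share of T was 35.4% in introns higher in picln-1, 42.1% in those higher in prmt5-5 and 40.6% in annotated introns. The last intron of a transcript made up 28.3% of the introns higher in picln-1 and 11.7% of those higher in prmt5-5, against 20.3% of annotated introns. Within coding sequence lay 75.8% of the introns higher in picln-1 and 95.1% of those higher in prmt5-5, against 87.6% of annotated introns. Of the 75 coding introns higher in picln-1, 34 (45.3%) had a length divisible by 3 and 60 (80%) held an in-frame stop codon. Among the coding introns higher in prmt5-5 the shares were 33.8% and 90.3%. Over annotated coding introns they were 33.3% and 89.0%, and at 85 bases or fewer the stop share was 80.9%. These differences did not all recur among shared bins past 10 points, of which 14 introns were higher in picln-1 and 60 in prmt5-5. There the median share of T was 36.9% and 41.2%, but last introns made up 14.3% and 11.7%. Of the coding introns there, 36.4% and 34.6% had a length divisible by 3, and 100% and 92.3% held an in-frame stop.

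Both directions could occur within 1 gene. In 37 genes bins passed 10 points each way, and in 28 of them introns did so. Scores were available on both sides in 27, and in 26 of these the intron higher in picln-1 had the higher 5′ splice-site score, with medians of 7.04 and 3.81 bits. It was the shorter one in 17 of 28 genes and the one with less T in 24 of 28. Most of these introns were listed for 1 mutant only, so their direction partly follows from the list.
In MAP3KA, a MAP kinase kinase kinase gene, intron 4 (8.96 bits) stood at 3.03%, 18.8% and 2.06%, and intron 8 (3.62 bits) at 2.97%, 3.61% and 26.2%. In MAP3KA each mutant thus retained a different intron, with the other mutant near WT. Each intron was listed only for the mutant that retained it, so the lists set much of this contrast.
The same was measured in GSL12, a callose synthase gene: intron 27 of 42 stood at 1.78% in WT, against 23.0% in picln-1 and 2.08% in prmt5-5. Its intron 29 stood at 0.341%, listed at 0% and 15.7%. In CPSF160, a subunit of the cleavage and polyadenylation complex, intron 5 stood at 2.44%, 20% and 1.55% and intron 8 at 14.3%, 11.6% and 45.9%. GSL12 and CPSF160 had the same pattern as MAP3KA, with each intron again listed only for the mutant that retained it. SYD, a SWI/SNF chromatin remodeller gene, had its last intron at 7.41%, 38.9% and 15.9% and intron 25 at 1.05%, listed at 0%, and 15.3%. Its introns were split between the lists in the same way. VCS, a scaffold of mRNA decapping, had intron 1 at 49.3%, 83.1% and 58.7% and a later intron at 2.22%, 5.33% and 29.5%. Both VCS introns were listed for prmt5-5 only. FC2, also called AFC2, encodes a LAMMER kinase that phosphorylates SR proteins; 1 intron of 71 bases stood at 6.29%, 29.5% and 14.3%, and intron 2 at 17.6%, 23.9% and 50%.

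Bins at alternative 5′ splice sites mostly had the lower fraction in prmt5-5, but their fraction measures the choice of site and not retention. Of 24 such bins 17 had the lower fraction in prmt5-5, 13 of them by over 10 points and 4 bins the other way, with a median difference of -14.5 points. A bin of this kind lies between an upstream and a downstream site, and a lower fraction means that the upstream site was used more. Most of the 17 bins were listed for prmt5-5 only, so their direction partly follows from the list. The only bin of this kind listed for both mutants, in DYL1, stood at 68.4% in WT, against 44.2% in picln-1 and 49.3% in prmt5-5. Some of the shortest bins with lower fractions in prmt5-5 are shown with the GT of both sites in capitals, from 3 bases before the upstream site to 6 bases into the intron after the downstream site, in build TAIR10.1.
AT3G07760 (chr3:2476573-2476576): tcgGTagGTattt
AT5G17530 (chr5:5781881-5781884): aatGTagGTactt
AT4G16695 (chr4:9394570-9394573): gacGTagGTgtgc
PIN7 (chr1:8182206-8182217): atgGTgaaaacaaagGTtttt
PIN4 (chr2:182005-182016): agaGTaatgctagagGTtctt
RCA (chr2:16571180-16571190): acgGTaaaacagagGTttga
All 3 bins of 4 bases, at sites that overlap as GTNNGT, were lower in prmt5-5 than in picln-1. AT3G07760 stood at 48.9% in WT, against 38.5% in picln-1 and 7% in prmt5-5, AT5G17530 at 25.3%, 35.1% and 4.42%, and AT4G16695 at 47.2%, 44.2% and 26.1%. In each of them the upstream site had the lower score. Its G at base 5 of the intron is fixed by the overlap, as it is the first base of the downstream GT. Over the 17 bins lower in prmt5-5, G at that base was found at 9 upstream sites, these 3 included, and 4 downstream sites.
PIN7 and PIN4 encode paralogous auxin efflux carriers, and each has a bin of 12 bases. PIN7 stood at 25.6% in WT, against 23.1% in picln-1 and 7.76% in prmt5-5, and PIN4 at 48.9%, 51.9% and 37.5%. RCA, which encodes Rubisco activase, has a bin of 11 bases, which stood at 49.6%, 52.3% and 32.2%. In all 3, picln-1 lay within 4 points of WT and prmt5-5 below both. Of the 17 bins lower in prmt5-5, 10 had the weaker site downstream. The 4 scored bins with the higher fraction in prmt5-5 all had the weaker site upstream; among them FAC1, the AMP deaminase gene, stood at 36.3%, 37.2% and 77.1%, and ARF1, an auxin response factor gene, at 85.9%, 71.2% and 85.1%. The 14 skipped exons and 10 alternative 3′ splice sites were split 9 against 5 and 6 against 4, the first count of each being higher in prmt5-5.

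In genes of the splicing machinery, some bins departed from WT mainly in picln-1. Of 38 snRNP and spliceosome genes 5 had a bin in the union, 1 each, where 11.4% of all genes with an annotated intron had at least 1, so this count is near the background. U1-70K, a core protein of the U1 snRNP, had intron 6 of 8 (chr3:18827440-18828348) at 29.0% in WT, against 5.50% in picln-1 and 33.2% in prmt5-5. GEMIN2, which organises Sm proteins for snRNP assembly, had intron 1 at 35.1%, 21.2% and 17.6%, and U2AF65B, a subunit that reads the polypyrimidine tract, had intron 4 at 53.3%, 31.8% and 30.3%. U1-70K thus separated the mutants by 27.7 points, whereas GEMIN2 and U2AF65B were better spliced than WT in both, within 4 points of each other. Expression of U1-70K was listed as lower in picln-1 (log2 change -0.83 in the authors' deposited table) and was not listed in prmt5-5. U2AF35A, the partner subunit that reads the 3′ splice site, had its 5′ UTR intron at 2.39%, 2.44% and 8.43%; it overlaps AT1G27640, so reads of that gene may enter.
SR proteins and hnRNP-like proteins choose splice sites. Of 25 such genes 14 had a bin, above the 11.4% of all genes with an annotated intron, though the list was chosen with earlier results known. Their 19 bins were split 16 higher in prmt5-5 and 3 in picln-1. The median difference was 9.79 points, against 8.44 points over the union. Past 10 points they split 8 against 1. The share higher in prmt5-5 was 84.2%, against 88.0% over the union, and past 10 points it was 42.1% against 41.4%. These directions are near the background. RS40 intron 3 stood at 26.9% in WT, against 13.6% in picln-1 and 46.0% in prmt5-5, SR30 included its alternative 3′ part at 56.9%, 38.5% and 69.0%, and SCL33 stood as given above. These 3 lay below WT in picln-1 and above it in prmt5-5. The bins of RS40 and SR30 were listed for picln-1 only. PTB1, a polypyrimidine tract-binding protein gene, had intron 9 at 11.5%, 0.958% and 10.8%, with picln-1 alone low, and the 5′ UTR intron 1 at 2.13%, 8.11% and 52.8%, with prmt5-5 far the highest.
SR45A had a 3′ UTR intron at 39.4% in WT, against 39.4% in picln-1 and 78.1% in prmt5-5, and the skipped exon of SR34A stood at 12.4%, 8.37% and 27.3%. In both of these bins picln-1 lay near WT, while another bin of SR45A stood at 73.5%, 65.4% and 83.5%. The other way, the skipped exon of RS40, next to its intron 3, stood at 39.8%, 33.8% and 25.1%, and RS2Z32 included its alternative 3′ part at 22.9%, 28.9% and 17.7% and its paralogue RS2Z33 at 12.5%, 22.3% and 15.7%; RS2Z33 overlaps AT2G08865, and paralogues may share reads. PRP39, a U1 snRNP protein gene outside the lists, had the mutants on opposite sides of WT, with intron 6 at 22.4%, 30.1% and 10.3%, and had the skipped exon beside it at 30.8%, 8.26% and 30.7%. That intron was listed for prmt5-5 only and the exon for picln-1 only.

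**Figure D5:**
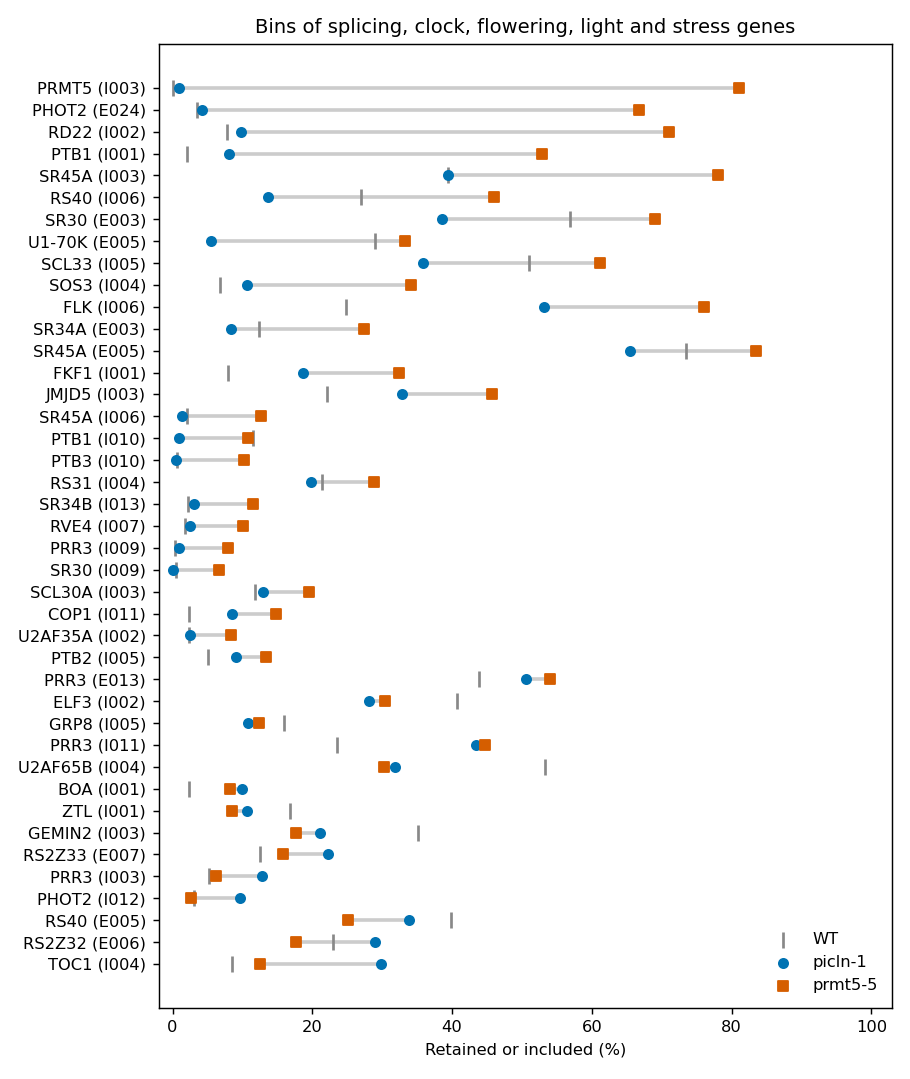
Percentage retained or included in WT (grey tick), picln-1 (blue circle) and prmt5-5 (orange square) for the bins of the union reported here that lie in a splicing, clock, flowering, light or stress gene of the lists, ordered by the difference between the mutants and pooled over the libraries of a genotype. PRMT5 is at the top with a difference of 80.2 points and TOC1 at the bottom with -17.3 points.

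Of 24 clock genes 8 had a bin, above the 11.4% of all genes with an annotated intron, in a list likewise chosen with earlier results known. Their 11 bins were split 7 higher in prmt5-5 and 4 in picln-1, with a median difference of 2.39 points. Over the union 88.0% were higher in prmt5-5, with a median of 8.44 points. TOC1 intron 4, shown above, stood at 8.55% in WT, against 29.8% in picln-1 and 12.6% in prmt5-5, the largest difference toward picln-1 in the lists. FKF1, a blue-light F-box protein gene, had its intron at 7.89%, 18.7% and 32.5%, and JMJD5, a jumonji demethylase gene, an intron at 22.1%, 32.8% and 45.7%. FKF1 and JMJD5 rose above WT in both mutants and further in prmt5-5, each listed for both.
PRR3, a TOC1 relative, had 4 bins that behaved differently. Its 5′ UTR intron stood at 23.5%, 43.4% and 44.7%, level between the mutants, its alternative 3′ part at 43.8%, 50.6% and 54.1%, intron 7 at 5.26%, 12.8% and 6.18%, and intron 1 of the coding transcript at 0.422%, 0.952% and 7.89%. ELF3, of the evening complex, had intron 2 at 40.7%, 28.0% and 30.4%, below WT in both mutants. ZTL, another blue-light F-box protein gene, stood at 16.8%, 10.7% and 8.51%, but its usage went the other way in prmt5-5, as stated above.

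Flowering, light and stress genes are read against the same background of 11.4% of genes with a bin. FLK, which encodes an RNA-binding promoter of flowering, had its 5′ UTR intron at 24.8% in WT, against 53.1% in picln-1 and 76% in prmt5-5; 2 of 28 flowering genes had a bin. PHOT2, a blue-light receptor gene, held an intron of 75 bases (7.25 bits) at 3.04%, 9.62% and 2.69%, and one of 98 bases (1.98 bits) at 3.45%, 4.15% and 66.7%. Each mutant again retained a different intron, and each intron was listed for that mutant only. COP1, the ubiquitin ligase that represses light responses in the dark, had intron 11 at 2.29%, 8.53% and 14.9%. The salt tolerance gene SOS3 had an intron at 6.80%, 10.6% and 34.1%, and the drought gene RD22 one at 7.84%, 9.78% and 71.0%, which makes 2 of 13 salt, cold and abscisic acid genes with a bin.

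Expression was read beside splicing from the authors' deposited tables, which list 279 genes for picln-1 (1.69% of 16473 tested) and 1531 for prmt5-5 (9.14% of 16747). Of the 1341 genes with a bin over 10 points higher in prmt5-5, 329 were listed for expression in prmt5-5, 319 higher and 10 lower than WT, where the whole table holds 836 higher and 695 lower. In picln-1, 13 of the same genes were listed, 2 higher and 11 lower. Of the 115 genes with a bin over 10 points higher in picln-1, 22 were listed in prmt5-5, 20 higher and 2 lower, and 2 were listed in picln-1, both lower. Among the 1693 genes with a bin within 10 points, 160 were listed in prmt5-5, 133 higher and 27 lower, so most were higher there too. These gene groups overlap, since a gene with several bins can enter more than 1. In 37 genes bins passed 10 points each way, among them AK3, NEK2 and CPSF160, which were listed as higher in prmt5-5. The groups are therefore not independent sets of genes. Of the 14 genes described with the largest excess in prmt5-5, 10 were listed as higher there and 1, AT1G76020, as lower (log2 change -1.27 in the authors' deposited table). The sources used here do not say whether reads within retained introns entered the gene counts, and their part in these rises was not tested.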

How the data were processed

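Polyadenylated RNA of 4 libraries each of WT, picln-1 and prmt5-5 seedlings was sequenced. The submitters' processing notes name TopHat and TAIR10; the counting and testing program is not given in the sources used. The fraction of each bin is the authors' own, pooled per genotype, and identical in both deposited tables for shared bins. The log2 changes and the p-values and adjusted p-values were computed by the authors as mutant against WT, per the file headers; the base of the logarithm is not stated there. Per the deposited description, a bin is listed when its adjusted p is under 0.15 and its fraction changes by more than 0.05, and a gene when its adjusted p is under 0.05; the smallest change listed for a gene was 0.58.

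Bins of both tables were joined by name, 1 row per bin, and fractions multiplied by 100. The limit of 10 points was chosen as clear of the authors' 5 points. Dividing adjusted by raw p and multiplying by the rank gave the number of bins or genes tested, a step checked on simulated data. Introns were matched by start and end to the RefSeq annotation of TAIR10.1, where numbers and positions refer to 1 matching transcript. The 9 bases of each 5′ splice site were weighed, in bits against equal base shares, by the base frequencies of annotated introns. In 19 bins fraction and length equalled those of a bin in another gene, near-identical copies between which reads may be split.

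The genes named are the 15 with the largest difference in each direction, each gene entering once by its bin of largest absolute difference; the 10 shared bins with the smallest larger adjusted p; bins of the gene lists and mutated genes; bins with the mutants on opposite sides of WT; and genes with bins in both directions, of which the most telling are printed. The results of 3 bins within these rules are not reported here. Alternative 5′ splice sites were shown after their values were seen. The members and lists were chosen with earlier results of these data known. Count tests planned for the case of counts per library could not be made. Python 3.11.15, numpy 2.4.6, pandas 2.3.3 and matplotlib 3.10.9 were used.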

Additional observations from a re-analysis of the deposited data

Results flagged for a closer look

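Among the bins listed for both mutants, 3 were singled out because their usage moved in opposite directions against WT in the authors' deposited tables, down in picln-1 and up in prmt5-5. The difference in fraction was 25.4 percentage points for SCL33, 74.1 points for AT2G35390 and 16.2 points for GLT1. The difference between the mutants was not tested, since no value per library was available.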

How the results depend on the processing

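No median difference changed sign in any alternative run, and a reversal was scored for no other kind of result. Of 63 recomputed values 39 stayed within the spread or limit set and 24 moved. That spread is taken over bins, not over libraries. Taking the fractions of shared bins from the list for prmt5-5 could change nothing, since they are identical in both. The share of bins higher in prmt5-5 (88.0%) was 89.2% with an adjusted p below 0.05, 91.3% below 0.01, 90.1% with 1 bin per gene and 74.7% for bins with a WT fraction of at least 0.1. The count over 10 points higher in prmt5-5 (1527) was 313 with that WT fraction, 2714 at 5 points and 593 at 20 points. The count higher in picln-1 (119) was 64 with an adjusted p below 0.01, 61 with that WT fraction, 76 with 1 bin per gene, 248 at 5 points and 30 at 20 points. The median difference (8.44 points) was 8.86 and 9.62 at the stricter adjusted p, 7.88 without genes listed for expression, 12.5 with that WT fraction and 9.05 with 1 bin per gene; over shared bins (1.51) it was 3.39 with that WT fraction. Alternatives on splice sites and identical gene copies were chosen after seeing the data. The median score of introns higher in prmt5-5 (4.74 bits) was 5.13 at 5 points, 4.18 at 20 points and 5.04 without genes listed for expression. Over shared bins their median length was 151 bases and T share 41.2%, and the T share of introns higher in picln-1 was 36.9%. Fewer bins enter most of these settings; the cause of the shifts was not tested.

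No paired analysis was possible because the fractions are pooled per genotype, with no value per library, and leaving out replicates was not run for the same reason. Depth is unknown, also behind fractions listed at 0 or 100%. Only bins past the authors' limits are listed, and a bin of 1 list is tilted toward that mutant.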
